A study of Homo sapiens with 6 samples.

Results

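Eukaryotic translation initiation factors (eIFs) were represented in this genome-wide CRISPR/Cas9 screen by 204 guide RNAs (gRNAs) against 51 genes, 4 gRNAs each, out of 77441 gRNAs against 19364 genes. The members were all gRNAs whose target gene symbol begins with EIF followed by a digit from 1 to 6, without the eIF2 alpha kinases (EIF2AK1 to EIF2AK4), and every member had a row in both tables, with 0 reads for 1 member gRNA in each of 3 libraries. The cells were IMR32, a human neuroblastoma line with MYCN amplification, which expressed Cas9 and carried the Brunello knockout library as a pooled, uncloned population. They were grown alone, together with CD14-depleted lymphocytes from a blood donor (coculture), or in the same coculture with 10 µg/ml nivolumab. Nivolumab is an antibody that blocks PD-1. The adherent cells were collected on day 5 according to the methods of the study, whereas its results section gives 6 days of coculture. Each of the 3 conditions had 2 libraries, numbered by replicate, and each replicate number stood for a lymphocyte donor. The words donor 1 and donor 2 name the replicate here, also for IMR32 alone, which had no lymphocytes. The study ran its screens at a high and a low effector-to-target ratio, so that donor, ratio and replicate cannot be told apart. All groups share the Cas9 transgene and the gRNA library. The reads came from gRNA cassettes in genomic DNA and carry no expression, so the identity of the cells was not checked against marker genes. No gRNA sequence is printed, since the count tables name each gRNA by its gene and a number.

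Initiation of translation begins when eIF2, bound to GTP, brings the initiator methionyl-tRNA to the small ribosomal subunit. eIF1, eIF1A, eIF3 and eIF5 join it there, and the cap-binding complex eIF4F (the cap-binding protein eIF4E, the helicase eIF4A and the scaffold eIF4G) recruits the messenger RNA. eIF2B then recharges eIF2 with GTP, and eIF5B joins the large subunit. Knockout of a factor that every dividing cell needs is known to remove cells from a growing pool, whereas paralogues and tissue-restricted forms are often dispensable.

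The measure used for each gRNA was its level, that is log2 of its normalized reads (plus 1) minus the median of the 1496 gRNAs against 374 olfactory receptor genes in the same library, which serve here as neutral targets. A level of 0 is the abundance of the median olfactory receptor gRNA, and levels are also given as a percent of that abundance. The gene level is the median over its 4 gRNAs. A gene was called low when its level lay below the 5th percentile of the olfactory receptor genes in both libraries of IMR32 alone, a line that stood at 63.4% of the neutral median in donor 1 and 58.9% in donor 2. A library of the starting pool was not analysed here. A low level therefore holds both the share that a gRNA had at the start and any loss of its cells during culture, and these cannot be told apart for a single gRNA.

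In IMR32 alone, 22 of the 51 initiation factor genes had a low level, against 13.4% of all genes and 15 of the 374 olfactory receptor genes. The median gene level of the factors was 63.0% of the neutral median in donor 1 and 60.3% in donor 2 (log2 level -0.70 ± 0.04, SD, n = 2), whereas the median over all genes was 86.4%. By complex, the low genes were 3 of 3 in eIF2, 10 of 14 in eIF3, 2 of 5 in eIF2B and 2 of 5 in eIF4F, with none of the 5 eIF1 and eIF1A genes and none of the 4 eIF4E-binding proteins. In all 6 libraries 19 factors were low, against 9.6% of all genes. Genes whose symbols begin with RPL or RPS and a digit had a lower median level (38.5% of the neutral median, 76 of 97 genes low). This pattern takes in the cytosolic ribosomal proteins but is not limited to them. The median of 17 cytosolic aminoacyl-tRNA synthetases was also lower (47.6%, 14 low). The difference between these lists was not tested, because their gRNAs share the same 6 libraries. With the stricter line at the 1st percentile of the olfactory receptors 6 factors lay below it, against 1.72% of all genes.

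Of the 204 gRNAs, 42 lay below the 5th percentile of olfactory receptor gRNAs in both libraries of IMR32 alone, which is 20.6% against 7.88% of all gRNAs. No factor had 4 such gRNAs, 4 factors had 3, 7 had 2, 16 had 1 and 24 had none. Of the 19357 genes with 4 gRNAs, 20 had 4, 138 had 3, 763 had 2, 4080 had 1 and 14356 had none. The factors with 3 were EIF3D, EIF2S1, EIF2S3 and EIF5. Between the lowest and the highest gRNA of a gene the level spanned 1.56 log2 units in the median gene. The span was narrowest in EIF3G (0.20), a subunit of eIF3 whose 4 gRNAs lay between -0.98 and -0.78, and widest in EIF4E3 (8.52), where it rested on a single gRNA. That gRNA, EIF4E3_4, had 0 and 19.4 normalized reads in IMR32 alone, 10.4 and 10.7 in coculture and 0 and 47.4 with nivolumab, while the other gRNAs of the gene had 505.2 or more in IMR32 alone. EIF6_4 was similar, at 14.4 and 0 normalized reads in IMR32 alone, with between 4.9 and 27.9 in the other libraries.

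The number in the gRNA name moved with the level, in neutral genes too. Among the factors the gRNA numbered 4 was the lowest of its gene in 20 of 51 genes and the gRNA numbered 1 in 5. Among olfactory receptors the gRNA numbered 4 was the lowest in 35.3% of genes and the gRNA numbered 1 in 21.4%, with median levels of -0.11 and 0.09. Among the factors those medians were -0.92 and -0.43. The part of the gRNA number in the levels of single genes was not tested.

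eIF2, the carrier of initiator tRNA, had the lowest levels of the complexes, with all 3 subunits low and 7 of 12 gRNAs low. EIF2S1 encodes the alpha subunit, the site phosphorylated in the integrated stress response. Its level was 28.7% and 21.5% of the neutral median in IMR32 alone (donor 1, then donor 2), 32.4% and 26.0% in coculture, and 28.0% and 22.3% with nivolumab. Its 4 gRNAs were close together, between -2.35 and -1.73. EIF2S3, the gamma subunit that binds GTP and the tRNA, had 35.7% and 34.3% in IMR32 alone, 38.9% and 31.9% in coculture, and 34.5% and 36.4% with nivolumab. EIF2S2, the beta subunit, stood highest of the complex at 48.8% and 53.2% in IMR32 alone, 46.9% and 37.4% in coculture, and 47.7% and 46.6% with nivolumab. The 6 values of EIF2S1 and the 6 of EIF2S2 did not overlap. A single gRNA of EIF2S2 lay far below the others, at -5.94. EIF2A and EIF2D, which can deliver initiator tRNA outside the eIF2 route, stood near or above the neutral median, with 115.1% and 124.2% for EIF2A and 91.5% and 87.9% for EIF2D in IMR32 alone.

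eIF2B, the exchange factor that recharges eIF2, was split. EIF2B4 (the delta subunit), with 47.0% and 34.8% in IMR32 alone, 45.2% and 47.8% in coculture and 47.9% and 40.1% with nivolumab, was the lowest. EIF2B5, the catalytic epsilon subunit, was also low (49.8% and 46.7% in IMR32 alone). EIF2B3, EIF2B1 and EIF2B2 were not, with means of 67.1%, 68.7% and 71.2% of the neutral median. EIF2B2 had the highest mean level of the complex, at 78.4% and 64.6% in IMR32 alone, 68.2% and 64.7% in coculture and 71.9% and 57.6% with nivolumab. The lowest gRNAs of EIF2B4 and EIF2B5 lay at -1.83 and -2.46, while each gene also had a gRNA near the neutral median (0.15 and -0.01).

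eIF3, the largest initiation factor, had low levels for EIF3A, EIF3B, EIF3C, EIF3CL, EIF3D, EIF3E, EIF3G, EIF3H, EIF3J and EIF3L. EIF3D, a subunit that can itself bind the cap of some messenger RNAs, was the lowest of all 51 genes, and no olfactory receptor gene had a lower mean level in IMR32 alone. It stood at 18.0% and 19.2% of the neutral median in IMR32 alone, 20.1% and 24.1% in coculture, and 25.0% and 15.9% with nivolumab. The gRNA EIF3D_4 had 102.1 and 80.6 normalized reads in IMR32 alone, and EIF3D_2 had 513.8 and 475.6. EIF3J, a loosely attached subunit, was next within the complex at 30.3% and 27.8% in IMR32 alone. Its gRNAs were split, with EIF3J_1 at -4.45 and EIF3J_3 at -2.90, but EIF3J_4 at -0.67 and EIF3J_2 at -0.18. With gRNAs under 50 normalized reads left out EIF3J was no longer low. EIF3B, a core subunit, differed most between the libraries of IMR32 alone, with 48.8% in donor 1 and 27.9% in donor 2. That gap of 0.81 log2 units compares with a median gap of 0.15 over the 51 factors and 0.12 over all genes.

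The eIF3 subunits without a low level were EIF3F, EIF3I, EIF3K and EIF3M. EIF3K, a peripheral subunit that binds EIF3L, had the highest level of the complex, at 115.3% and 103.7% in IMR32 alone, 97.5% and 93.6% in coculture and 108.2% and 102.3% with nivolumab. Its partner EIF3L lay just under the line at 58.4% and 56.9% in IMR32 alone and was low in both of these libraries, although not in all 6. EIF3F, a core subunit, stood at 115.4% and 96.3% in IMR32 alone, 119.7% and 104.5% in coculture and 126.3% and 94.3% with nivolumab, so that donor 1 was above donor 2 in each condition. EIF3I, also a core subunit, had a mean of 83.6% in IMR32 alone, with 1 low gRNA at -2.74. EIF3M stood at 75.5%.

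Within eIF4F, the scaffold EIF4G1 and the cap-binding protein EIF4E were low, and the paralogues EIF4G3 and EIF4A2 were near or closer to the neutral median. EIF4G1 stood at 51.3% and 41.8% in IMR32 alone, 53.4% and 44.05% in coculture and 41.1% and 44.5% with nivolumab. EIF4G3 stood at 95.8% and 103.0% in IMR32 alone, and between 93.7% and 102.7% in the other 4 libraries, so EIF4G1 lay below EIF4G3 in all 6 libraries (difference of their levels -1.30 to -0.83). EIF4G2 (DAP5), which lacks the eIF4E-binding part of the scaffold, was in between at 74.4% and 84.8% in IMR32 alone and was above EIF4G1 in all 6 libraries. EIF4E stood at 50.02% and 43.1% in IMR32 alone, 58.1% and 45.1% in coculture and 47.9% and 36.6% with nivolumab. Its relatives EIF4E2 (4EHP, a cap-binding repressor) and EIF4E3 were above it in all 6 libraries, with 77.4% and 65.1% for EIF4E2 and 62.5% and 63.4% for EIF4E3 in IMR32 alone. EIF4E1B, an oocyte form of the cap-binding protein, nevertheless had a low level, with 52.1% and 57.3% in IMR32 alone. Its 4 gRNAs ranged from -1.89 to 0.51, and with the mean over gRNAs it was no longer low.

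For the eIF4A helicases, EIF4A1 stood at 68.6% and 56.6% in IMR32 alone, 70.0% and 74.4% in coculture and 71.3% and 62.9% with nivolumab. It was below the line in donor 2 only and was not called. EIF4A2 had 79.1% and 81.3% in IMR32 alone and was above EIF4A1 in all 6 libraries (EIF4A1 minus EIF4A2 -0.52 to -0.04). EIF4A3, a helicase of the exon junction complex and not of eIF4F, was lower than both, at 46.1% and 41.5% in IMR32 alone, 38.4% and 32.3% in coculture and 37.8% and 36.7% with nivolumab. EIF4B, which stimulates eIF4A, was low at 61.0% and 49.6% in IMR32 alone, and EIF4H, its relative, was below the line in donor 1 only (63.0% and 59.5%).

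The eIF4E-binding proteins, which hold eIF4E away from the scaffold, had no low gene. EIF4EBP1 stood at 80.0% and 99.3% in IMR32 alone, EIF4EBP2 at 85.2% and 95.3%, and EIF4EBP3 at 56.3% and 66.2%, below the line in donor 1 only. EIF4EBP3 lay under EIF4EBP1 in all 6 libraries. EIF4ENIF1, which carries eIF4E into the nucleus, had a mean of 85.8%.

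Of the factors of start-site selection, EIF1 stood at 77.4% and 65.2% in IMR32 alone and its paralogue EIF1B at 100.2% and 95.4%, with EIF1 lower in all 6 libraries. EIF1AX, encoded on the X chromosome, stood at 69.1% and 60.8%, while its Y-linked paralogue EIF1AY had the highest level of the 51 genes, at 123.9% and 145.2%. EIF1AX minus EIF1AY was -1.26 to -0.70 in log2 level over the 6 libraries. EIF1AD, a gene with a domain like that of eIF1A, had a mean of 115.1%.

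Among the later factors, EIF5 and EIF6 were low. EIF5, which makes eIF2 hydrolyse its GTP, stood at 31.9% and 32.4% in IMR32 alone, 35.2% and 31.5% in coculture and 28.1% and 32.2% with nivolumab. EIF6, which acts in the assembly of the large ribosomal subunit and keeps it apart from the small one, stood at 30.1% and 31.8% in IMR32 alone, 24.1% and 27.2% in coculture and 32.8% and 25.4% with nivolumab. EIF5B, the GTPase of subunit joining, was not low, with a mean of 75.6%. EIF5A, the hypusine-bearing factor that relieves stalled ribosomes, stood at 71.6% and 53.2% in IMR32 alone, 56.5% and 49.5% in coculture and 65.0% and 48.7% with nivolumab. It was below the line in donor 2 only, and its gRNAs differed widely, from EIF5A_3 at 61.0 and 79.6 normalized reads to EIF5A_2 at 1058 and 1122. EIF5A2, its paralogue, stood at 57.0% and 60.3%, and the order of EIF5A and EIF5A2 was not the same in all libraries (EIF5A lower in 5 of 6). EIF5AL1, an EIF5A-like gene, stood at 122.6% and 113.1% and lay above EIF5A in all 6 libraries (EIF5A minus EIF5AL1 -1.16 to -0.69).

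Ordered by mean level in IMR32 alone, neighbouring factors were close, with a median step of 0.04 log2 units, and in 45 of 50 neighbouring pairs the values of the 2 libraries overlapped. The order is therefore informative between the ends of the list and not between neighbours. Of the factors, 6 lay below the line in a single library: EIF5A2, EIF4EBP3, EIF4H, EIF5A, EIF4A1 and EIF4E3.

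Several of these genes have near-identical copies, which matters for a nuclease that cuts every matching site. For each gene all possible SpCas9 sites (20 bases before NGG, both strands) were taken from the coding exons of its canonical GENCODE transcript on GRCh38 and looked up in the whole assembly. This describes the genes and not the gRNAs of the library, whose sequences were not used here. In 13 of the 51 genes at least 50% of the sites had another exact match. EIF3C (chr16:28688558-28735727, plus strand) and EIF3CL (chr16:28379579-28403841, minus strand) shared 334 sites, 99.7% of those of EIF3C and 99.4% of those of EIF3CL, so a gRNA placed at any of these sites matches both genes. Their mean levels in IMR32 alone were 47.7% for EIF3C and 40.1% for EIF3CL, with EIF3C higher in 5 of 6 libraries, and an effect of cutting cannot be assigned to a single gene of the pair. EIF5A (chr17:7306999-7312463, plus strand) and EIF5AL1 (chr10:79512533-79516440, plus strand) shared 43 sites, 86.0% of those of EIF5A and 68.3% of those of EIF5AL1, yet their levels lay apart as given above. EIF4A1 (chr17:7572824-7579006, plus strand) had another match for 73.1% of its sites and shared none with EIF4A2 (chr3:186783205-186789897, plus strand). EIF4B (94.0%), EIF1 (89.7%), EIF4E (85.4%), EIF1AX (78.3%), EIF3F (78.1%), EIF2S2 (77.8%), EIF4H (65.7%) and EIF2S3 (63.1%) were the other genes with mostly repeated sites. Of the 7 genes with the lowest mean levels in IMR32 alone, EIF3D, EIF2S1, EIF6 and EIF3B had 1.09% or fewer. EIF3J had 41.5%, EIF5 had 14.8% and EIF2S3 is among the genes just named. Of the 13 genes with repeated sites 6 were low, and of the other 38 genes 16 were low, with median levels of -0.71 and -0.62.

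Coculture and nivolumab were compared with limma on all 19364 genes, with the donor as a block, and p-values were adjusted by Benjamini-Hochberg over all genes. The gene value in these comparisons was the median over the 4 gRNAs after each gRNA had been centred on its own mean over the 6 libraries. This removes the starting share common to all libraries. A share that differed between the replicates is not removed at this step. The ratio of a donor is a difference of such medians and not the median of the gRNA ratios, and these can differ in sign. For EIF4G1 with nivolumab against coculture in donor 2 it was -0.05. The single gRNAs had -0.12, 0.10, 0.14 and 0.01 there. The 3 comparisons share libraries, and their values are set side by side only. With 2 libraries a condition an exact permutation test could not go below 0.333, so single genes rest on the spread that limma shares across genes. The replicates were separate screens with different donors, on cells that had been transduced in duplicate.

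Between coculture and IMR32 alone, 0 of the 51 factors passed an adjusted p of 0.05 in limma (smallest adjusted p = 0.919), against 0.00516% of all genes, which is 1 gene. At an unadjusted p under 0.05 there were 6, against 5.29% of all genes, 5 with a negative and 1 with a positive log2 ratio. The median log2 ratio of the factors was -0.03 (-0.04 in donor 1, -0.03 in donor 2), beside -0.00 over all genes, and single factors ranged from -0.26 to 0.19 with standard errors of 0.06 to 0.16. In both donors 20 factors were below 0 and 10 above it, and 21 had opposite signs, where all genes gave 25.8% and 24.1%. EIF5A had the lowest value, -0.26 (standard error 0.09, adjusted p = 0.919 in limma), with -0.14 in donor 1 and -0.38 in donor 2. It was followed by EIF4B with -0.25 (-0.01 and -0.49) and EIF4E2 with -0.21 (-0.19 and -0.22). Of the 4 gRNAs of each gene, 2 of EIF5A were below 0 in both donors, but only 1 of EIF4B and 1 of EIF4E2. EIF3E (-0.20) and EIF3K (-0.18), both subunits of eIF3, had nearly the same gene ratio in each donor, but their gRNAs varied more. EIF3E_1 had 0.09 in donor 1 and -0.25 in donor 2, and EIF3K_2 had -0.34 and 0.20. Of the 4 gRNAs, 3 of EIF3E and 2 of EIF3K were below 0 in both donors. The highest values of factors with the same sign in both donors were 0.19 for EIF3D, 0.18 for EIF4A1 and 0.14 for EIF2S1. EIF4B rested on donor 2, with -0.06 without the second library of IMR32 alone and -0.09 without the second coculture library. EIF3D was -0.05 without the second coculture library, 0.42 without the first and 0.08 without the first library of IMR32 alone. EIF5A was -0.16 without the second coculture library, EIF4A1 was 0.06 without the second library of IMR32 alone, and EIF2S1 was 0.05 without the first library of IMR32 alone and 0.08 without the first coculture library. EIF4E2 was -0.14 with the mean over gRNAs.

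Between coculture with nivolumab and IMR32 alone, again 0 of the 51 factors passed (smallest adjusted p = 0.808 in limma), beside 0% of all genes. At an unadjusted p under 0.05 there were 4 factors, 3 with a negative and 1 with a positive log2 ratio, against 5.37% of all genes. The median log2 ratio was -0.03, with single factors between -0.26 and 0.20. EIF4B was lowest at -0.26 (-0.11 in donor 1, -0.41 in donor 2), then EIF3L at -0.24 (-0.28 and -0.19) and EIF4A2 at -0.17 (-0.15 and -0.19). Without the second library of IMR32 alone EIF4B was -0.07. EIF4EBP3 was highest at 0.20 (0.32 and 0.07), then EIF2S2 at 0.14 and EIF3M at 0.12. These positive values were smaller under other settings. EIF4EBP3 was 0.10 without the first library of IMR32 alone or the first nivolumab library. EIF2S2 was 0.00085 with gRNAs under 50 normalized reads left out, 0.09 without the first library of IMR32 alone and 0.07 without the first nivolumab library, and EIF3M was 0.05 without the first nivolumab library. In both donors 16 factors were below 0 and 8 above it, where all genes gave 26.0% and 24.7%, and 27 had opposite signs.

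Between coculture with and without nivolumab, the comparison that adds the blockade of PD-1, 0 of the 51 factors passed an adjusted p of 0.05 (smallest adjusted p = 0.996 in limma), beside 0% of all genes. At an unadjusted p under 0.05 there were 6, 1 with a negative and 5 with a positive log2 ratio, against 4.61% of all genes. The median log2 ratio was -0.01, with single factors between -0.28 and 0.24. EIF4G1 was lowest at -0.28 (standard error 0.11, adjusted p = 0.996 in limma), with -0.51 in donor 1 and -0.05 in donor 2, and 1 of its 4 gRNAs was below 0 in both donors. It was -0.07 without the first coculture library and -0.14 without the first nivolumab library. EIF3L had -0.19 in each donor, with 3 of 4 gRNAs below 0 in both, and EIF4E had -0.17 (-0.21 and -0.13, and -0.06 without the first coculture library). EIF2S2 was highest at 0.24 (0.31 and 0.18). EIF5A followed at 0.20 (0.12 and 0.28, and 0.10 without the second coculture library). EIF4EBP3 also had 0.20 (0.26 and 0.14, and 0.11 without the first nivolumab library). Only 1 of the 4 gRNAs of EIF2S2 was above 0 in both donors, and 2 of 4 each for EIF5A and EIF4EBP3. EIF4E2 (0.18) and EIF3K (0.14) also had positive values in both donors, but EIF4E2 was 0.0098 with the mean over gRNAs and EIF3K 0.09 without the first nivolumab library. Of the 51 factors, 29 had opposite signs in the donors, as had 9800 of the 19364 genes, and across the 51 genes the log2 ratios of the donors had a Pearson r of -0.02 in this comparison, as a description of genes that share libraries.

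By complex, the median log2 ratios with nivolumab against coculture differed between the donors. They were 0.08 for eIF2 (-0.0062 in donor 1, 0.17 in donor 2) and -0.02 for eIF2B (0.0084 and -0.07). For eIF3 the median of the mean ratios was -0.04, although the medians within the donors were both positive (0.08 and 0.01). For eIF4F it was -0.16 (-0.17 and -0.05). By gene value, 4 of its 5 genes were below 0 in both donors and the fifth, EIF4G3, above 0 in both. Of all genes 24.3% were below and 25.1% above 0 in both. The gRNAs were less uniform. EIF4E, EIF4A1 and EIF4A2 each had 3 of 4 gRNAs below 0 in both donors, but EIF4G1 had 1. EIF4G3 had 2 gRNAs above 0 in both and 1 below. In coculture against IMR32 alone the same complexes had medians of -0.03, -0.04, -0.02 and 0.05. Each of these had opposite signs in the donors, with 0.11 and -0.12 for eIF2, -0.16 and 0.06 for eIF2B, -0.01 and 0.0064 for eIF3, and 0.07 and -0.12 for eIF4F. None of these medians was tested.

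The regulators of initiation outside the gene symbols above were read from a list of 22 genes. In IMR32 alone 4 of them were low (18.2%), a share near the 13.4% of all genes. They were ABCE1, the ribosome recycling ATPase, at 44.8% of the neutral median, PABPC1, the poly(A)-binding protein, at 46.1%, DHPS, which makes the hypusine of EIF5A, at 36.3%, and PPP1R15B, a subunit of the eIF2 alpha phosphatase, at 59.2%. The eIF2 alpha kinases EIF2AK1, EIF2AK2, EIF2AK3 and EIF2AK4 had 73.0%, 75.0%, 75.7% and 97.9%. In limma 0 of the 22 passed in any of the 3 comparisons, and 0 had an unadjusted p under 0.05. Their log2 ratios lay between -0.21 and 0.19.

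All libraries were scaled by the authors to the same total. Every value was a whole multiple of a step, and totals of 58554842 to 79924251 steps per library were taken as the depth, with a median of 713 to 987 steps per gRNA. Over the 204 members the median was 482.5 to 706.5 steps. Libraries of the same replicate number correlated at 0.961 to 0.966 over all gRNAs and libraries of different number at 0.939 to 0.943. They thus grouped by replicate number and not by condition, and this includes the libraries of IMR32 alone, which had no lymphocytes.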

How the data were processed

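Genomic DNA of IMR32 cells was amplified and sequenced by the authors, whose labels and methods name MAGeCK (version not given in the sources used here) and an analysis of UMI lineages. The authors deposited 2 tables, 1 per donor, each with 3 libraries, and their unit is a read signal per gRNA scaled to equal library totals. Whether UMIs were collapsed is not stated, so reads may not be independent molecules. No column of values was left out. Columns were assigned by name.

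Levels used a pseudocount of 1 and the olfactory receptor median of each library. The pseudocount makes the log2 ratios of gRNAs with few reads smaller, but these ratios can still be large and rest on few reads. EIF6_4 had 4.14 in donor 2 for coculture against IMR32 alone, from 0 to 16.6 normalized reads. The fit was limma 3.58.1 in R 4.3.3 (condition plus replicate block, variance trend on the mean level, 2 residual and 94.2 prior degrees of freedom), with levels from Python 3.11.15, numpy 2.4.6 and pandas 2.3.3. It was also run on simulated data, with changes larger than the ratios of the factors and without a replicate effect. That run does not show how the fit treats ratios of the size seen here. The methods form fold changes within each donor, which is why the donor is a block, and the deposited tables pair the libraries by donor. Deviations from the condition means correlated at 0.39 to 0.40 between libraries of the same number. Sites were taken from GENCODE 44 on GRCh38, where all 51 symbols matched.

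The members and lists were chosen with earlier results of these data known. Named genes are the lowest and highest of each complex, the paralogue sets, the 3 lowest and 3 highest ratios with the same sign in both donors, and members with an unadjusted p under 0.05, at most 8 per comparison. Other genes were named after their values were seen. Alternatives were a pseudocount of 10, gRNAs under 50 mean normalized reads left out, the mean over gRNAs, the deposited scaling, no replicate block, limma per gRNA and each library left out.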

Additional observations from a re-analysis of the deposited data

How the results depend on the processing

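In all 3 comparisons 0 factors were called under each setting tried, including the fit without the replicate block, limma per gRNA and fits that left out 1 library. Without the replicate block, 1, 0 and 0 factors had an unadjusted p under 0.05 in the 3 comparisons in the order given above, against 6, 4 and 6, and the medians were the same (-0.035, -0.027 and -0.0054). With the mean over gRNAs those medians were -0.011, -0.026 and 0.0085. Leaving out 1 library moved them between -0.037 and -0.019 for coculture, between -0.031 and -0.011 for nivolumab against IMR32 alone, and between -0.0054 and 0.018 for nivolumab against coculture. The unadjusted count for coculture was 0 without the second library of IMR32 alone and 3 without the second coculture library. For nivolumab against IMR32 alone it was 1 without the first library of IMR32 alone. For nivolumab against coculture it was 2 without either coculture library and 3 without the first nivolumab library. These fits kept 1 library in a condition, whose spread was taken from the others.

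The count of 22 low factors was 22 with a pseudocount of 10 or without gRNAs under 50 normalized reads, 21 with the mean over gRNAs and 24 or 26 with a single library of IMR32 alone. It was 6 with the 1st percentile. The median level of the factors, -0.70, was -0.63 without gRNAs under 50 normalized reads, -0.77 with the mean over gRNAs and -0.73 or -0.67 with a single library. The cause of these shifts was not tested. Over the settings for pseudocount, low values and mean, 18 factors remained low in all. EIF3E, EIF3G and EIF4E1B were not low with the mean over gRNAs and EIF3J not without gRNAs of few reads, whereas EIF4E3 and EIF5A became low with the mean and EIF4H without gRNAs of few reads. Among the values of single named genes under the alternatives, 356 stayed within the spread of their 2 donors or kept their call, and 32 moved. A further 4 lost and 3 gained a low call. That spread is not the standard error and can be wider. EIF4B in coculture counted as unmoved at -0.06 without the second library of IMR32 alone, against -0.25 (standard error 0.10). An edgeR test on reads recovered from the scaled values was not run, because too few values lie near the step between them.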
